A study of Mus musculus with 6 samples.

Results

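The Bcl2 family decides whether a cell keeps or opens its mitochondrial outer membrane, the step that commits it to apoptosis. Guardian proteins such as Bcl2, Bcl-xL (the product of Bcl2l1) and Mcl1 hold the membrane closed, while the effectors Bax and Bak1 form the pore. BH3-only proteins (Bim from Bcl2l11, Puma from Bbc3, Bad and Bid) sense stress and either occupy the guardians or activate the effectors. Bnip3 is a distant relative in the mitochondrial outer membrane that also marks mitochondria for autophagy. In islets these genes are studied because the balance of beta cell survival and death helps to set beta cell mass, which expands in rodent pregnancy.

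The 10 genes were chosen by symbol from a table of 19940 genes, and all 10 were found and had at least 10 mean reads. Expression was measured by RNA sequencing in hand-picked pancreatic islets of C57BL6/J mice. The 3 samples of the pregnant group came from mice at gestational day 14.5, and the 3 of the nonpregnant group were labelled as littermates. The ages of the mice are not given in the sources used here, and nothing in the labels says whether a sample came from 1 animal or a pool. According to the series' design text, 5 animals were used in each group.

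Each value is the authors' mean of read counts over a group, tested by the authors, and the spread between samples is unknown. A gene is said to have risen or fallen where the adjusted p in the authors' deposited table was under 0.05. A fold change is the pregnant over the nonpregnant level.

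In pregnant islets Bcl2l1 and Bad rose and Bcl2 fell, each by a modest factor. The guardian gene Bcl2 fell to 0.67 of its nonpregnant level and the guardian gene Bcl2l1 rose 1.32-fold in the authors' deposited table. Bad, which encodes a BH3-only antagonist of Bcl2 and Bcl-xL, rose 1.27-fold in the authors' deposited table. The other 7 members, among them Mcl1, the most abundant of the 3 guardian genes among the members, and both effector genes, did not pass. Of the 10 members 3 (30%) passed, beside 11.7% of all genes and 14.8% of genes with at least 10 mean reads. By direction 2 members were higher beside 7.57% of all genes, and 1 was lower beside 4.15%. Over genes with at least 10 mean reads, which all members reach, these shares were 9.54% higher and 5.27% lower. The median log2 ratio of the members was 0.08, beside -0.01 over all 15682 genes that reached 10 mean reads.

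The feature that unites the family is the BH3 core, the short helix by which its members bind each other. The lines below give the coding bases of this core, to show how alike the members that rose, fell or did not pass are in the stretch that binds. Capitals mark a leucine codon and, after 3 further codons, the codon pair that ends in the aspartate shared by the family. They come from the GENCODE M21 transcripts of GRCm38, coding strand, 27 bases each.
Bcl2: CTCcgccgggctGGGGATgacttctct
Bcl2l1: CTGagagaggcaGGCGATgagtttgaa
Mcl1: CTGcggcgcgtgGGCGACggcgtgcag
Bax: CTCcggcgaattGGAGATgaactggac
Bak1: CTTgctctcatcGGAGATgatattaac
Bcl2l11: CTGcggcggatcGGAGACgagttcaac
Bbc3: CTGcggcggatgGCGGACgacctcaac
Bad: CTCcgaaggatgAGCGATgagtttgag
Bid: CTCgcccaaataGGCGATgagatggac
Bnip3: CTGaagaaaaacTCAGATtggatatgg
The codon before the aspartate encodes glycine in 7 of these genes. It encodes alanine in Bbc3 and serine in Bad and Bnip3. The search pattern was written to fit the family. It matched exactly 1 place in each of the 10 coding sequences and at least 1 place in 9.16% of 21816 coding genes.

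Among the guardians, Bcl2 (ENSMUSG00000057329, chromosome 1, minus strand, 106538178 to 106714274 of GRCm38) is the founding member of the family. Its authors' mean was 593 reads in nonpregnant and 386 reads in pregnant islets. If these means average 3 unscaled libraries, counting error alone gives exact Poisson 95% intervals of 566 to 621 and 364 to 409. The intervals do not overlap, but they hold no spread between animals. In the authors' deposited table Bcl2 had a log2 ratio of -0.58 and an adjusted p of 0.00216. A log2 ratio this low or lower was found in 5.93% of genes with at least 10 mean reads.

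Bcl2l1 (ENSMUSG00000007659, minus strand of chromosome 2 at 152780668 to 152831728) went the other way. Its authors' mean was 4114 reads in nonpregnant and 5288 reads in pregnant islets, with counting intervals of 4040 to 4190 and 5210 to 5370. The log2 ratio in the authors' deposited table was 0.40 with an adjusted p of 0.00338, and 12.6% of genes with at least 10 mean reads had a ratio as high or higher. Mcl1 (ENSMUSG00000038612, plus strand of chromosome 3 at 95658788 to 95663176) encodes a short-lived guardian whose level follows synthesis and breakdown closely. Its authors' means of 8763 reads in nonpregnant and 8800 reads in pregnant islets nearly coincided. Mcl1 stood at 1.03-fold in the authors' deposited table with an adjusted p of 0.955.

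Levels of different genes were compared as mean reads per kilobase of annotated exon. On this scale Mcl1 was the most abundant of these guardians in both groups, with 2563.8 in nonpregnant and 2574.6 in pregnant islets. Bcl2l1 followed with 897.1 and 1153.1, and Bcl2 was far below with 64.8 and 42.2. The level of Bcl2l1 was thus 13.9 times that of Bcl2 in nonpregnant and 27.4 times in pregnant islets. Of the summed level of the 3 guardians, Mcl1 made up 72.7% and 68.3%, Bcl2l1 25.4% and 30.6%, and Bcl2 1.84% and 1.12%, nonpregnant before pregnant. Bcl2 has 9157 annotated exon bases and a longest transcript of 7191, and Bcl2l1 has 4586 and 2568. The level per kilobase of either gene is an underestimate if islets use a shorter transcript, so the ratio between them depends on the length used. These levels and ratios rest on a lone mean in each group, without an error.

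**Figure D1:**
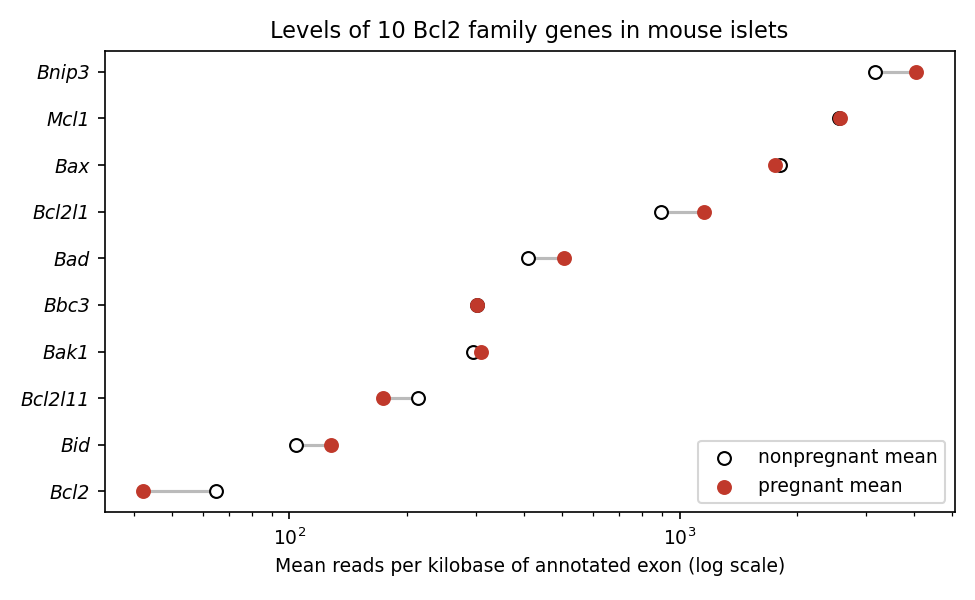
Level of each of the 10 genes in mean reads per kilobase of annotated exon, on a log axis, with open circles for the nonpregnant mean and filled circles for the pregnant mean. Bnip3, at 3165.6 and 4041.1, and Mcl1 lie at the top and Bcl2, at 64.8 and 42.2, at the bottom in both groups.

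The effector genes stayed close to their nonpregnant means. Bax (ENSMUSG00000003873, minus strand of chromosome 7 at 45461697 to 45466898) had authors' means of 2851 reads in nonpregnant and 2763 reads in pregnant islets. The authors' deposited table gave Bax a fold change of 0.99 with an adjusted p of 1. Bak1 (ENSMUSG00000057789, minus strand of chromosome 17 at 27019810 to 27029009) had authors' means of 710 reads and 747 reads in the same order. Its fold change was 1.08 with an adjusted p of 0.789 in the authors' deposited table. A p that misses the threshold does not show that the levels were equal. Per kilobase, Bax stood at 1809 and Bak1 at 295 in nonpregnant islets, so the level of Bax was 6.13 times that of Bak1, and 5.65 times in pregnant islets.

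Set against each other per kilobase, the summed level of the 3 guardians was 1.68 times that of the 2 effectors in nonpregnant and 1.83 times in pregnant islets. Adding the other guardian genes, of which Bcl2l2 holds nearly all reads, brought these to 2.72 and 3.12. Without length scaling they were 3.78 and 4.12. With each gene's longest annotated transcript as its length they were 1.47 and 1.66. The pregnant value was the higher one under each of these 4 ways of counting, while its size depended on the length used. All 4 use the same 2 group means, so they are not independent of each other. Bok, an effector-like gene that rose 1.42-fold in the authors' deposited table, was not added to the effectors. Neither group's value has an error, and the spread between mice is unknown.

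The 4 BH3-only genes were mixed. Bad (ENSMUSG00000024959, plus strand of chromosome 19 at 6941861 to 6951899) encodes a protein that is inactive while phosphorylated by survival kinases. Its authors' mean was 1045 reads in nonpregnant and 1295 reads in pregnant islets, with counting intervals of 1010 to 1080 and 1250 to 1340. The log2 ratio was 0.35 in the authors' deposited table, and the adjusted p of 0.0462 lay just inside the threshold. Of the annotated exon bases of Bad, 20.5% overlap exons of Gpr137 on the opposite strand. Gpr137 itself had authors' means of 2673 reads in nonpregnant and 2317 reads in pregnant islets and did not pass (adjusted p = 0.405 by the authors' deposited table).

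Bid (ENSMUSG00000004446, minus strand of chromosome 6 at 120891930 to 120916853) encodes the link from death receptors and caspase-8 to the mitochondrion. Its authors' means were 370 reads in nonpregnant and 453 reads in pregnant islets, and the fold change of 1.26 in the authors' deposited table was nearly that of Bad. It did not pass (unadjusted p = 0.0374 and adjusted p = 0.187 in the authors' deposited table). Bcl2l11 (ENSMUSG00000027381, plus strand of chromosome 2 at 128126038 to 128162547) had the lower mean in pregnant islets, 1395 reads against 1714. At a fold change of 0.84 it did not pass either (unadjusted p = 0.0271 and adjusted p = 0.149 in the authors' deposited table).

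Bbc3 (ENSMUSG00000002083, plus strand of chromosome 7 at 16308393 to 16318205), a classical p53 target, had authors' means of 644 reads in nonpregnant and 641 reads in pregnant islets. The authors' deposited table gave it a fold change of 1.02 and an adjusted p of 1. Summed over the 4 BH3-only genes, the level per kilobase was 1029 in nonpregnant and 1109 in pregnant islets.

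Bnip3 (ENSMUSG00000078566, minus strand of chromosome 7 at 138890836 to 138909519) had the highest level per kilobase of the 10 genes in both groups. Its authors' means were 7170 reads in nonpregnant and 9153 reads in pregnant islets. That is a fold change of 1.31, close to that of Bcl2l1, but with an unadjusted p of 0.0152 and an adjusted p of 0.0995 in the authors' deposited table it did not pass. Bnip3, Bid and Bcl2l11 thus had an unadjusted p under 0.05 without passing after adjustment over all genes.

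**Figure D2:**
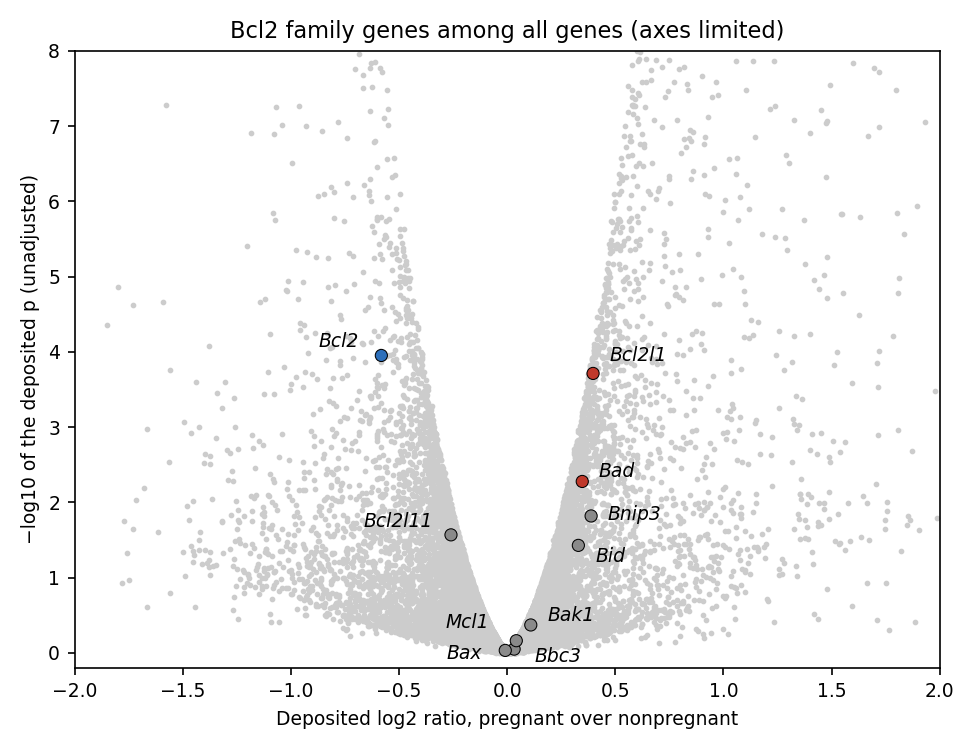
Deposited log2 ratio against −log10 of the deposited unadjusted p, with genes of at least 10 mean reads in grey and the 10 members as large points (red higher, blue lower, grey not past the threshold). Bcl2 at -0.58 and Bcl2l1 at 0.40 lie highest among the members, and the axes are limited, so genes beyond them are not drawn.

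Exons of 6 members overlap another annotated gene, which leaves their reads uncertain if strand was ignored in counting or the annotation differed. Besides Bad, these are Bid with Bcl2l13 (17.7% of its exon bases), Bak1 with Ggnbp1 (18.2%), Bnip3 with Gm45507 (22.2%) and Bcl2 with D630008O14Rik (6.09%), each on the opposite strand. Bax shares 12.2% with Gm45808 on its own strand. D630008O14Rik had authors' means of 2 reads in nonpregnant and 0 reads in pregnant islets, far fewer than Bcl2. Bcl2l13, in contrast, had 5080 reads and 5191 reads in the same order, far more than the 370 and 453 of Bid. Ggnbp1 had 1065 reads and 727 reads, beside 710 and 747 for Bak1. Bcl2l1, Bcl2l11, Mcl1 and Bbc3 share no exon base with another annotated gene.

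Whole islets were sequenced, so fewer cells of a type and less RNA per cell cannot be told apart. Markers of acinar cells, the enzyme-secreting exocrine cells around islets, were higher in 27 of 29 members with at least 10 mean reads and took 1.76% of pregnant and 0.13% of nonpregnant mean reads. In the nonpregnant mean 1 acinar marker, Amy2a5, is listed at 0. All 6 markers of dividing cells rose and took 0.00904% and 0.00174%. Alpha cell markers, with 0 of 7 higher and 3 lower, took 1.62% and 2.41%, and beta cell markers, with 2 of 8 higher and 0 lower, took 22% and 18.7%. Of 6 endothelial, 6 mesenchymal and 4 Schwann cell markers 0 passed, and 1 of 7 immune markers rose. Of 7 duct cell markers 1, Muc1, rose 2.64-fold and 0 fell, and of 4 delta and PP cell markers 0 rose and 1, Hhex, fell to 0.69 in the authors' deposited table. The delta and PP cell markers took 0.723% of pregnant and 0.858% of nonpregnant mean reads, and the duct cell markers 0.0251% and 0.0243%. Most of the duct cell marker reads were of 1 gene, Krt7, with 15895 of 22028 in pregnant and 15400 of 20504 in nonpregnant islets. Recomputed from the printed means and scaled to summed mean reads, the log2 ratio was -0.67 for Bcl2, 0.31 for Bcl2l1 and 0.26 for Bad. With the acinar genes left out of this scaling, the log2 ratio was -0.65 for Bcl2, 0.33 for Bcl2l1 and 0.28 for Bad. The part of the other cell types in these changes was not tested.

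The remaining genes of the family were read from lists drawn up by role, which also hold Bclaf1, a Bcl2-associated gene outside the family. Among 4 measured further guardians 1, Bcl2l2, rose and 0 fell, beside 9.54% higher and 5.27% lower over genes with at least 10 mean reads. Bcl2l2, which encodes Bcl-w, had authors' means of 9568 reads in nonpregnant and 11606 reads in pregnant islets. It rose 1.24-fold (adjusted p = 0.0243 by the authors' deposited table). The Bcl2a1 genes, guardians of blood cells, had authors' means of at most 51 reads, and as near-identical copies they can exchange reads.

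Of 10 measured genes listed as further BH3-only and Bcl2-like, 2 rose and 0 fell. Of genes with at least 10 mean reads, 9.54% were higher and 5.27% lower. Bok, an effector-like relative of Bax, had authors' means of 265 reads in nonpregnant and 369 reads in pregnant islets and rose 1.42-fold (adjusted p = 0.0482 by the authors' deposited table). Bcl2l14 rose 2.64-fold (adjusted p = 0.00124 by the authors' deposited table), but from an authors' mean of 31 reads to 82 reads. Bclaf1, not itself a family member, had the most reads of this list and stood at 0.9-fold (adjusted p = 0.459 in the authors' deposited table). Acinar marker genes were higher in the same comparison, and their part in these rises was not tested.

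**Figure D3:**
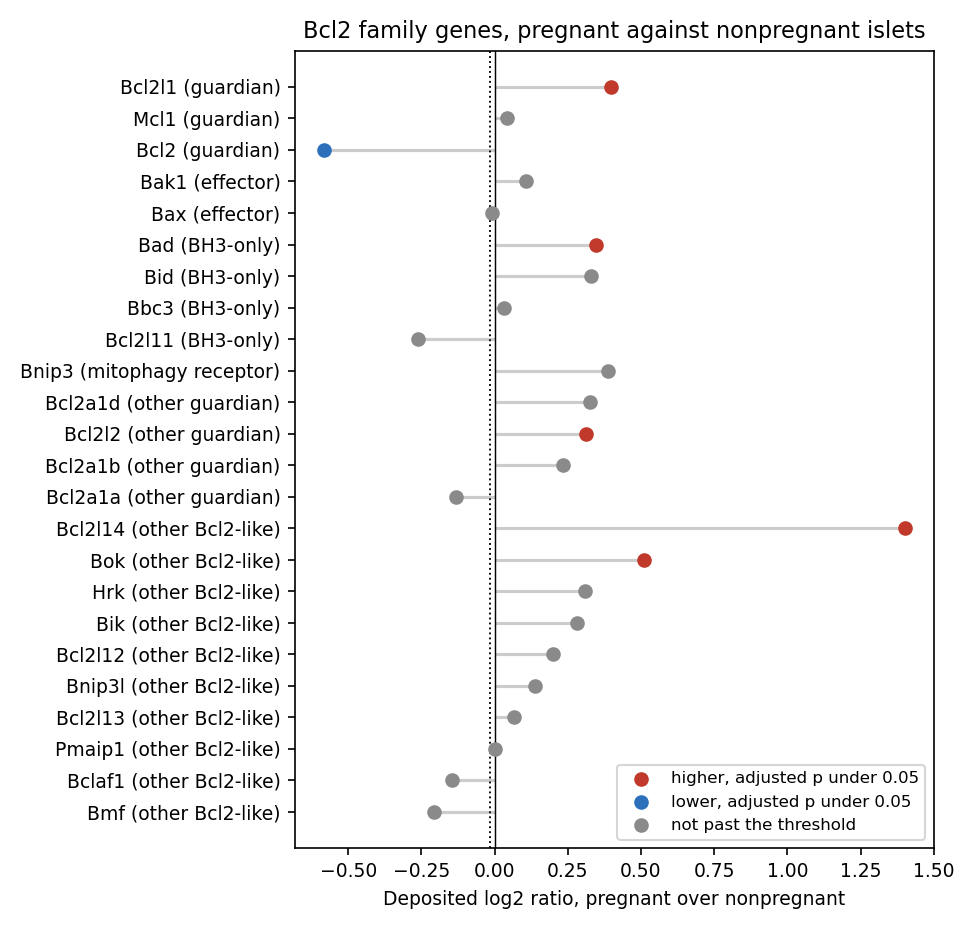
Deposited log2 ratio of the 10 members, of the other Bcl2 family genes with at least 10 mean reads and of Bclaf1, which is not of the family. Genes are grouped by role, with red points higher, blue points lower and grey points not past an adjusted p of 0.05. The dotted line is the median of all genes at -0.01, and Bcl2 at -0.58 is the one blue point.

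Downstream of the mitochondrial pore, cytochrome c and Apaf1 form the apoptosome that activates caspases. The list of this step also holds genes of the death receptor step, which Bid links to the mitochondrion. Among them Cflar, which restrains caspase-8 and had the most reads in the list, stood at 0.84 without passing (adjusted p = 0.0887 in the authors' deposited table).

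Inhibitor of apoptosis genes included 2 higher and 1 lower of 7 measured, beside 9.54% and 5.27% of genes with at least 10 mean reads. Birc5 encodes survivin, which also serves in the chromosomal passenger complex of mitosis. It went from an authors' mean of 63 reads to 334 reads, a 5.37-fold rise (adjusted p = 1.97e-26 by the authors' deposited table). The 6 markers of dividing cells rose in the same comparison, and their part in the rise of Birc5 was not tested. Naip2 rose 1.28-fold (adjusted p = 0.0112) and Birc6, a very large ubiquitin ligase, fell to 0.77 (adjusted p = 0.00468) in the authors' deposited table.

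Of 20 genes acting on Bad, 1 rose and 2 fell, beside 9.54% and 5.27% of genes with at least 10 mean reads. Listed are kinases and Ywha phosphoserine-binding proteins that keep Bad inactive, with Sfn of the same binding family, and Ppp3ca, a calcineurin subunit that dephosphorylates it. Akt1, a kinase of insulin and growth factor signalling that phosphorylates Bad, went from an authors' mean of 11797 reads to 19696 reads. Its rise was 1.71-fold (adjusted p = 4.18e-12 by the authors' deposited table). Pim2, another Bad kinase, fell to 0.71 (adjusted p = 8.79e-05) and the ribosomal S6 kinase gene Rps6ka2 fell to 0.82 (adjusted p = 0.0367) in the authors' deposited table. Ywhaq had the most reads and stood at 0.98 (adjusted p = 0.98 in the authors' deposited table).

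Regulators of Bim and Mcl1 included 2 higher and 0 lower of 15 genes, at a median log2 ratio of -0.004 (-0.091 when scaled to summed mean reads). Of genes with at least 10 mean reads, 9.54% were higher and 5.27% lower. Foxo3, a transcription factor known to drive Bcl2l11 and Bbc3, rose 1.36-fold (adjusted p = 0.0091 by the authors' deposited table), with authors' means of 5561 reads and 7372 reads. Mapk3, the kinase ERK1, which marks Bim for breakdown, rose 1.22-fold (adjusted p = 0.044 by the authors' deposited table). The deubiquitinase gene Usp9x, which stabilises Mcl1, stood at 0.86 (adjusted p = 0.313 in the authors' deposited table).

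Genes of p53 and its targets numbered 18 measured, with 2 higher, 1 lower and a median log2 ratio of -0.18. The shares over genes with at least 10 mean reads were 9.54% higher and 5.27% lower. Gadd45a, a stress gene that halts the cell cycle, rose 3.63-fold (adjusted p = 3.35e-50 by the authors' deposited table), from an authors' mean of 738 reads to 2616 reads. Perp, a membrane protein gene of p53-driven death, rose 1.71-fold (adjusted p = 1.73e-07) and the RNA-binding protein gene Zmat3 fell to 0.79 (adjusted p = 0.0209) in the authors' deposited table. Btg2, with the most reads, stood at 0.75 without passing (adjusted p = 0.305 in the authors' deposited table). The target genes within the Bcl2 family, Bax and Bbc3, are described above and did not pass.

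Hypoxia-induced genes, the group to which Bnip3 belongs, were listed with the hypoxia factor genes Hif1a and Epas1. Of 17 measured, 0 were higher and 2 lower, beside 9.54% and 5.27% of genes with at least 10 mean reads. P4ha1, a collagen prolyl hydroxylase subunit, fell from an authors' mean of 7746 reads to 4863 reads, to 0.64 (adjusted p = 2.8e-05 by the authors' deposited table). Ddit4, an inhibitor of mTOR signalling, fell to 0.65 (adjusted p = 0.00605), and Vegfa, with the most reads, stood at 0.86 (adjusted p = 0.185) in the authors' deposited table. Bnip3 itself had the higher mean in pregnant islets without passing.

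Autophagy genes with the mitophagy receptors, the second role of Bnip3, included 3 higher and 0 lower of 18, at a median log2 ratio of 0.15 (0.057 when scaled to summed mean reads). The shares over genes with at least 10 mean reads were 9.54% higher and 5.27% lower. Sqstm1, a cargo receptor, rose 1.3-fold (adjusted p = 0.00357 by the authors' deposited table), with authors' means of 25595 reads and 32416 reads. The autophagosome protein genes Gabarap and Gabarapl1 rose 1.28-fold and 1.38-fold (adjusted p = 0.00828 and 0.0199) in the authors' deposited table.

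**Figure D4:**
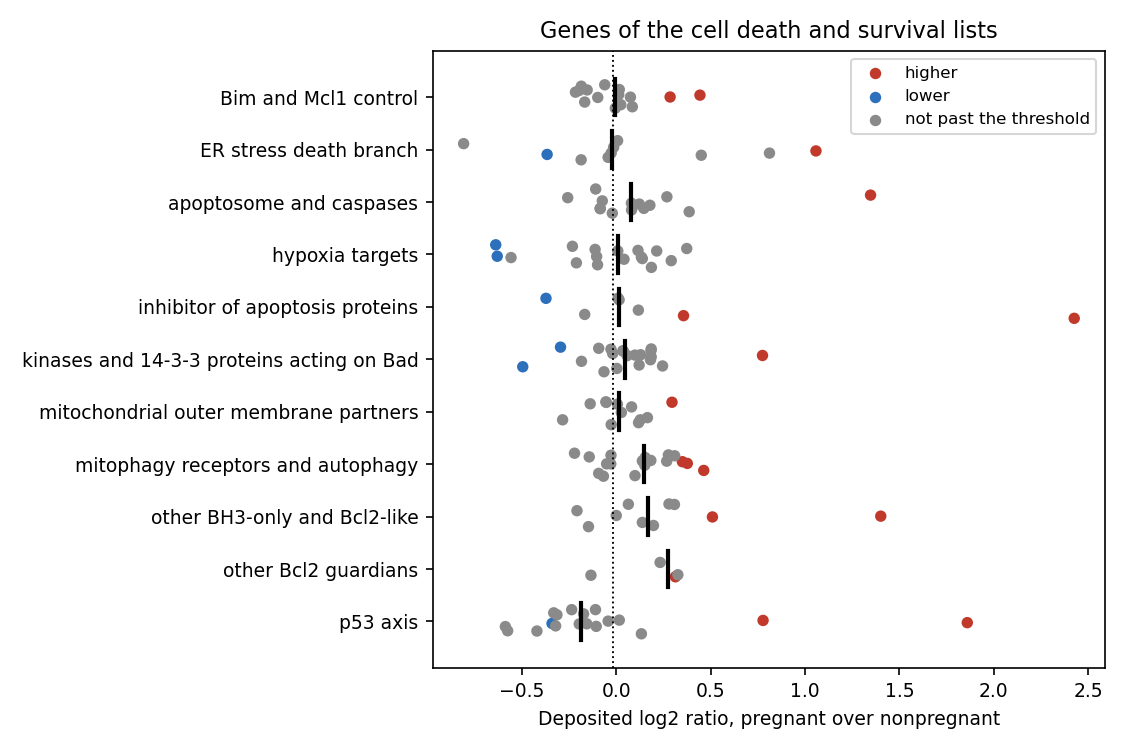
Deposited log2 ratio of each gene with at least 10 mean reads in 11 lists of cell death and survival genes, with a black bar at each list's median, a dotted line at the median of all genes (-0.01) and colours as red higher, blue lower and grey not past the threshold. Most medians lie near the dotted line, and Birc5 at 2.42 and Gadd45a at 1.86 lie farthest to the right.

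Over the 11 lists together, 143 distinct genes had at least 10 mean reads, of which 16 (11.2%) were higher and 7 (4.9%) lower. Over all 15682 genes with as many reads these shares were 9.54% and 5.27%. The share of called genes in the death and survival lists was thus near that of all genes.

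Promoter sequences of the members were searched for the letters bound by factors of these lists, because FOXO, p53 and hypoxia factors act on Bcl2l11, Bbc3, Bax and Bnip3. The letters of STAT5, which is in none of the lists, were searched as well. The 16 RefSeq windows of the 10 members (GRCm38.p6, 250 bases before to 50 after a start) were read on both strands. The FOXO letters TGTTTAC occurred in windows of Bcl2l11 and Bbc3, and in 3.65% of 32851 windows of all genes. The letters ACGTG, the core of the hypoxia response element, occurred in windows of Bnip3, Bax and Bbc3 and in 19.6% of all windows. The p53 half-site occurred in the window of Bax and in 8.36% of all windows. The STAT5 letters TTCNNNGAA, the site of the factor that prolactin activates, occurred in 0 of the 16 windows and in 8.3% of all windows. At that share few matches are expected in 16 short windows, so no conclusion on STAT5 can be drawn.
The matches are shown with 30 bases of context on the strand of the gene, with the match or its reverse complement in capitals.
Bcl2l11, FOXO, chr2:128125800-128125829, plus strand: aagacactaggGTAAACAcgccggggtggg
Bbc3, FOXO, chr7:16310083-16310112, plus strand: tctggcgggttTGTTTACaaacaatggggt
Bnip3, hypoxia, chr7:138909597-138909626, minus strand: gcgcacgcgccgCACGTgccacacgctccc
Bbc3, hypoxia, chr7:16310355-16310384, plus strand: gcggggcgggcgCACGTggcggcgtcgagg
Bax, hypoxia, chr7:45466890-45466919, minus strand: agcgatgatgatCACGTgactagtcctgcg
Bax, p53 half-site, chr7:45467080-45467109, minus strand: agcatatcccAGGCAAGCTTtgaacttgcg
In each of the hypoxia matches shown the letters on both strands overlap. Bax holds 1 more ACGTG match, which begins 35 bases after its start. The 4 genes that hold these letters, Bcl2l11, Bbc3, Bnip3 and Bax, are among the 7 that did not pass. The FOXO, p53 and hypoxia letters were chosen for these same 4 genes, so no link between letters and passing can be read from this. Bcl2, Bcl2l1 and Bad, which changed, hold none of these letters in their windows, nor do Mcl1, Bak1 and Bid. A match is a description of the letters, and binding was not measured.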

How the data were processed

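RNA of islets was sequenced after a TruSeq library preparation, per the labels' protocols, in 3 pregnant and 3 nonpregnant samples grouped by their descriptions. TopHat2 2.0.12, TopHat, Bowtie, HTSeq 0.5.3p3 and GRCm38 are named in the submitters' processing notes. The strand setting, any scaling and the test are not given in the sources used here.

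The authors deposited 1 rounded mean of read counts per gene and group, with no value per library. The authors' fold change is a linear ratio, and the deposited log2 ratio is its log2. The deposited p-value and its adjusted form come from the authors' own test, whose spread is not described. For well-covered genes the deposited log2 ratio exceeded that of the printed means by a median of 0.0351, which a pseudocount of 1 does not give. Mean reads summed to 87654449 for the pregnant and 84493872 for the nonpregnant group. Depth per library was not analysed here, and p-values may measure only technical spread.

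The 19963 lines held 19940 genes, of which 21 stood on more than 1 line with equal values. GENCODE M21 matched 19265 of them (96.6%) and gave coordinates and exon lengths. The planned count test needed values per library and was replaced by the deposited adjusted p under 0.05 over all genes. Recomputed Benjamini-Hochberg values, with code tested on simulated data, differed from the deposited ones by at most 0.00203. Named were all members and, per list, up to 4 genes with the smallest p among those that passed and the gene with the most reads. No gene was named for likeness to a member, since 2 group means give no pattern across samples. Of 2 gene IDs with 1 symbol, the one with more reads was used. Members and lists were chosen with earlier results of these data known. Counting intervals are exact Poisson intervals of 3 times the mean and cover counting error only. Calculations used Python 3.11.15, pandas 2.3.3, numpy 2.4.6 and scipy 1.17.1. A result of the apoptosome list is not reported here.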

Additional observations from a re-analysis of the deposited data

How the results depend on the processing

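No paired analysis was possible because the table holds 1 mean per group, and for the same reason fits without single replicates, edgeR and DESeq2 were not run. At an adjusted p under 0.01 the count of members called higher fell from 2 to 1, Bad being lost, and the 1 called lower remained. At 0.1 there were 3 higher, with Bnip3 added. Adjustment over genes with at least 10 mean reads left 2 higher and 1 lower. Over the pseudocounts of 0 and 5, both scalings to summed mean reads and centring on the median gene, the log2 ratio ranged from -0.672 to -0.568 for Bcl2, from 0.309 to 0.412 for Bcl2l1 and from 0.256 to 0.361 for Bad. Scaling to summed mean reads put the median log2 ratio of all genes at -0.103 and turned the members' median from 0.0755 to -0.013, and without the acinar genes it was 0.01. The same scaling moved the printed list medians to -0.272 for p53 targets, -0.091 for regulators of Bim and Mcl1 and 0.057 for autophagy genes. Values near 0 changed sign. The pseudocount and scaled ratios were recomputed from the printed means, without the 0.0351 by which the deposited log2 ratio exceeds theirs. Recomputed in this way, Bbc3 stood at -0.007 with either pseudocount, so the pseudocount itself did not turn it. Under the 2 scalings Bbc3 stood at -0.06 and -0.036 and Mcl1 at -0.047 and -0.023, while centring put Bax at 0.005. The balance of guardians over effectors was 1.83 in pregnant and 1.68 in nonpregnant islets per kilobase, 4.12 and 3.78 without length, 3.12 and 2.72 with other guardians added, and 1.66 and 1.47 with the longest transcript. The minimum of reads left the counts over the lists within 1.5 times.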

Other observations

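The death branch of the endoplasmic reticulum stress response, which reaches the Bcl2 family through Bim and Puma, included 1 higher and 1 lower of 10 genes. Of genes with at least 10 mean reads, 9.54% were higher and 5.27% lower. Ern1, the stress sensor IRE1 alpha, had authors' means of 25528 reads in nonpregnant and 51911 reads in pregnant islets, a 2.08-fold rise (adjusted p = 1.09e-08 by the authors' deposited table). Txnip, a thioredoxin-binding protein induced by glucose, fell to 0.78 (adjusted p = 0.00482 by the authors' deposited table). Acinar cells also carry a large endoplasmic reticulum, and their markers took 1.76% of pregnant and 0.13% of nonpregnant mean reads. Their part in the rise of Ern1 was not tested.

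A list of channels, fission and fusion factors and other partners of the family at mitochondria included 1 higher and 0 lower of 12. The shares over genes with at least 10 mean reads were 9.54% higher and 5.27% lower. This list also holds Opa1, of the inner membrane, and Tmem173, of the endoplasmic reticulum. Fis1, a fission factor, had authors' means of 4063 reads in nonpregnant and 4865 reads in pregnant islets and rose 1.23-fold (adjusted p = 0.0491 by the authors' deposited table). Mtch1, with the most reads of this list, stood at 1.02-fold (adjusted p = 0.98 by the authors' deposited table).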
